A study of Mus musculus with 4 samples.

Results

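The genes described here are the histone H3 lysine 9 (H3K9) methyltransferases Setdb1, Setdb2, Suv39h1, Suv39h2, Ehmt1 and Ehmt2, with Trim28 and Atf7ip, whose proteins work with SETDB1. They were taken by symbol from a table of 22138 genes, which held 9 rows for these 8 symbols because Atf7ip stood on 2 rows with different Ensembl identifiers. The 4 RNA libraries came from TT2, a female mouse embryonic stem cell line (C57BL/6xCBA), kept off feeder cells in medium with serum and LIF. The groups were control siRNA (n = 2) and siRNA against Hnrnpk (n = 2), given at 100 nM and, 24 hours later, at 50 nM, with RNA taken about 72 hours after the second dose. No genetic change was made. The Hnrnpk siRNA group is a transient knockdown, and both groups come from 1 cell line. By its title the study concerns hnRNP K, which binds single-stranded RNA and DNA, in silencing by SETDB1, so the comparison asks whether transcripts of the silencing enzymes themselves changed when Hnrnpk was depleted.

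Methylation of H3K9 marks silent chromatin. SUV39H1 and SUV39H2 place trimethylation, mainly at the satellite repeats beside centromeres. EHMT2 (G9a) and EHMT1 (GLP) act as a heterodimer that places mono- and dimethylation within gene-rich chromatin. SETDB1 trimethylates H3K9 at endogenous retroviruses and at some germline genes in embryonic stem cells. It is brought to many of these sites by TRIM28 (KAP1), which itself is recruited by KRAB zinc finger proteins, and ATF7IP binds SETDB1 and keeps it stable in the nucleus. SETDB2 is a related protein with a similarly divided catalytic domain.

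Values are RPKM, mapped reads scaled to transcript length and library size, so levels of different genes can be set side by side. In the libraries, the relative depth read from the smallest steps between low values ranged from 0.881 to 1, with both knockdown libraries below both controls. Hnrnpk itself was 236 and 226 RPKM after control siRNA and 68.0 and 70.5 RPKM after Hnrnpk siRNA, although reads of a near-identical processed pseudogene may be mixed into it. All 10 embryonic stem cell markers examined were at 45.1 RPKM or more in every library, but they did not all stay level. By the limma test given below, 2 were called higher and 4 lower, against 32.2% and 35.0% of all genes tested. Nanog was 204 and 190 RPKM after control siRNA and 353 and 342 RPKM after Hnrnpk siRNA. Sox2 was 231 and 195 RPKM and then 147 and 146 RPKM. Summed RPKM was 9.10 to 10.7 after control siRNA and 5.25 to 5.49 after Hnrnpk siRNA for 8 fibroblast markers, of which 5 stayed below 0.5 RPKM in every library. Of the 8, 2 were called lower and 0 higher. These were Thy1, at means of 6.05 and then 2.25 RPKM, and Col1a1, at 2.57 and then 1.79 RPKM. Pdgfrb did not fall, at 0.844 and then 0.977 RPKM (not called), so the sum does not describe each marker. The sum was 5.21 to 5.27 and then 30.6 to 31.3 for 7 primitive endoderm markers, and 3.36 to 3.80 and then 16.2 to 16.4 for 5 trophectoderm markers. Of the trophectoderm markers, 3 were called higher, and Elf5, too low to be tested, was lower, at means of 0.107 and then 0.0656 RPKM. For 6 markers of the two-cell-like state it was 0.560 to 0.591 and then 36.7 to 43.0. No marker gene was at 0 in all libraries, apart from a second row of the symbol Dab2. The part of these other cell states in the changes described next was not tested, and in bulk RNA fewer cells of a type and less RNA per cell cannot be told apart.

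Of the 9 rows, 5 (55.6%) were called by limma at a Benjamini-Hochberg adjusted p under 0.05 over all genes tested, 2 higher and 3 lower after Hnrnpk siRNA. Across the 12486 genes tested, 67.2% were called, 32.2% higher and 35.0% lower, so the share called among the 9 rows was not above that of the table. With either Hnrnpk siRNA library left out, fewer were called, both among the 9 rows and over all genes tested. Groups did not overlap in 6 of the 9, 2 above and 4 below, against 84.7% of all genes tested, 41.2% above and 43.5% below. The median log2 change of the 9 rows was -0.074, against -0.015 over all genes tested. All 9 rows passed the filter (mean RPKM 0.5 or higher), and each would have passed it in either group alone. Changes are given as log2 of RPKM + 0.5, Hnrnpk siRNA minus control siRNA, with the standard error (SE). With 2 libraries a group, an exact permutation test of 1 gene cannot go below p = 0.333, so calls depend on limma sharing its variance estimate between genes.

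**Figure D1:**
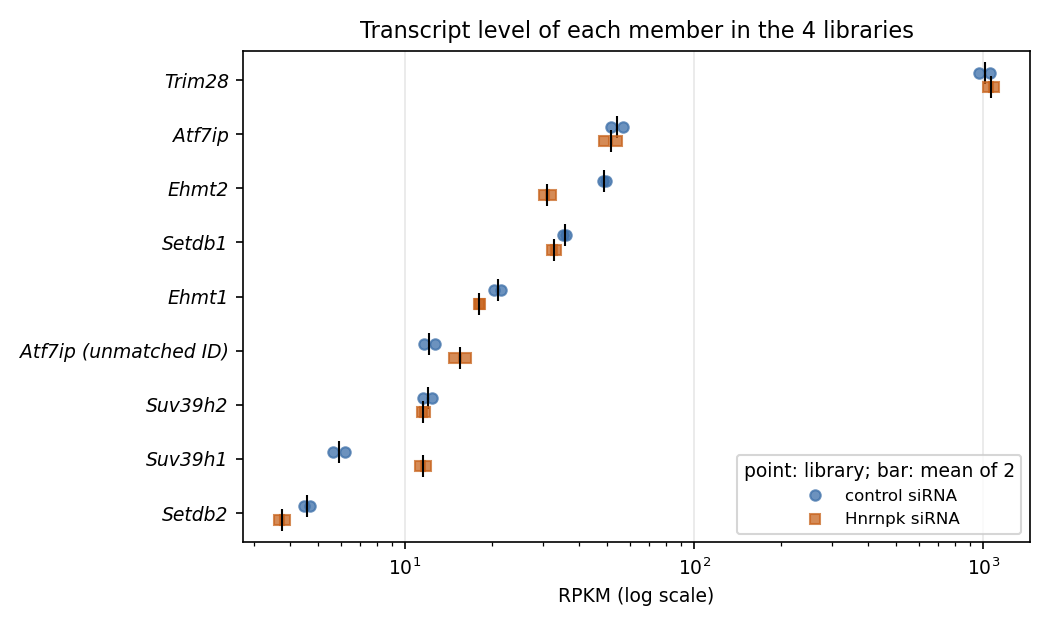
RPKM (log axis) of the 9 rows in each library, ordered by the control mean; circles are control siRNA libraries, squares are Hnrnpk siRNA libraries and bars are means of 2. The groups stand clearly apart for Suv39h1, near 6 and then 11 to 12 RPKM, and for Ehmt2, near 49 and then 30 to 32 RPKM.

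The levels covered a wide range. Trim28 led by far in both groups, at 1011 ± 59.8 RPKM (SD, n = 2) after control siRNA, above 99.9% of the genes tested. After control siRNA it was followed by Atf7ip, Ehmt2, Setdb1, Ehmt1, Suv39h2, Suv39h1 and Setdb2, and no 2 neighbours in that order overlapped in their libraries. Setdb2, the lowest, stood above 33.6% of the genes tested. After Hnrnpk siRNA the order changed at 2 places. Setdb1 passed Ehmt2, at 32.8 ± 0.672 against 31.1 ± 1.10 RPKM (SD over 2 libraries a group), with libraries that did not overlap and means 1.06-fold apart. Suv39h1 drew level with Suv39h2, at 11.6 ± 0.405 and 11.6 ± 0.224 RPKM (SD over 2 libraries a group), and their libraries overlapped.

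The SUV39H pair held the largest change among the 9 rows. Suv39h1 (ENSMUSG00000039231, protein coding, chromosome X from 8061171 to 8074760 of GRCm38, minus strand) was 6.20 and 5.62 RPKM after control siRNA and 11.3 and 11.9 RPKM after Hnrnpk siRNA. Both knockdown libraries lay far above both control libraries. It rose 1.96-fold, from 5.91 ± 0.405 to 11.6 ± 0.405 RPKM (SD over 2 libraries a group), a log2 change of 0.91 (limma, SE 0.0785, adjusted p = 7.77e-06). Of the genes tested, 4.88% had a larger rise. The gene overlaps an antisense gene, Gm14820, which was not analysed here and which covers 727 of the 3116 bases (23.3%) of the longest protein-coding Suv39h1 transcript. No source used here gives the strand of the reads, so that part of the signal cannot be told apart from antisense RNA.

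Suv39h2 (ENSMUSG00000026646, chromosome 2 from 3455815 to 3475031, minus strand), the other member of the pair, was 11.6 and 12.4 RPKM after control siRNA and 11.7 and 11.4 RPKM after Hnrnpk siRNA. The groups overlapped. Its log2 change of -0.048 (limma, SE 0.0715, adjusted p = 0.573) was not called, with a 95% interval from -0.21 to 0.11. The opposite-strand gene Dclre1c, which encodes the DNA end-processing nuclease Artemis, overlaps 281 bases (6.49%) of the Suv39h2 transcript and was itself low, at 1.57 ± 0.0465 and 1.41 ± 0.0369 RPKM (SD over 2 libraries a group; log2 change -0.11, not called). The ratio of Suv39h1 to Suv39h2 within a library was 0.536 and 0.453 after control siRNA and 0.962 and 1.04 after Hnrnpk siRNA. The 2 genes thus went from unequal to nearly equal levels, with no overlap between groups. The log2 ratio moved by 0.96 (exact permutation test, two-sided p = 0.333, the smallest 4 libraries can give; 0.417 after adjustment over 5 ratios). Summed RPKM of the pair was 17.9 ± 0.200 and 23.1 ± 0.182 (SD over 2 libraries a group).

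Since Suv39h1 lies on the X chromosome, the X was examined as a whole. Of 428 X-linked genes tested, 38.3% were called higher and 32.2% lower, against 32.0% and 35.3% of 11841 autosomal genes. The median log2 change was 0.043 on the X and -0.018 on the autosomes. A rise at least as large as that of Suv39h1 was seen in 28 of the 428 X-linked genes, itself included, and in 559 of the 11841 autosomal genes. The flanking genes in the table did not move with it. Was, a regulator of actin in blood cells, 6693 bases away on the same strand, was 2.13 and 2.08 RPKM and then 1.83 and 1.76 RPKM (log2 change -0.18 by limma, adjusted p = 0.092, not called). Glod5, 42679 bases away on the other side, fell from 16.2 ± 0.980 to 5.88 ± 0.816 RPKM (SD over 2 libraries a group; log2 change -1.39 by limma, adjusted p = 2.11e-06).

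RefSeq (GRCm38.p6) lists 2 start sites each for Suv39h1 and Ehmt2, the members with the largest changes, and the bases before each are shown for that reason. hnRNP K is known to bind C-rich single strands, such as the CT element of the Myc promoter, so CCCTCCC was searched on both strands (GGGAGGG on the printed strand) and is set in capitals. The runs read 5′ to 3′ on the strand of the gene and end at the base before the start site; the second Suv39h1 run holds 200 bases, the others 250.

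Suv39h1, first start, chrX:8074761-8075010, minus strand: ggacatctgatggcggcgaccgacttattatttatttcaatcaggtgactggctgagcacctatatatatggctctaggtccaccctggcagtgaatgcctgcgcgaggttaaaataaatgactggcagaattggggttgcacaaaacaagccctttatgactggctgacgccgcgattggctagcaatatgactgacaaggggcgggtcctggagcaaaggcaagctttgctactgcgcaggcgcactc
Suv39h1, second start, chrX:8074362-8074561, minus strand: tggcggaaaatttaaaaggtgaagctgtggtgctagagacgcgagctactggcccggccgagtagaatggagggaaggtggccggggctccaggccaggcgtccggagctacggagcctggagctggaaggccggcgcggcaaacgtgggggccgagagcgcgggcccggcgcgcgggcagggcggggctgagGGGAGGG
Ehmt2, first start, chr17:34898224-34898473, plus strand: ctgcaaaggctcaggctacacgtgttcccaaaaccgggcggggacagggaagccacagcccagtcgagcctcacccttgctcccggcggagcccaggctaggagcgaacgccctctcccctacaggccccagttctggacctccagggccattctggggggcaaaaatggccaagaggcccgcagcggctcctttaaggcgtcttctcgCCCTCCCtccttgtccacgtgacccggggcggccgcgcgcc
Ehmt2, second start, chr17:34898720-34898969, plus strand: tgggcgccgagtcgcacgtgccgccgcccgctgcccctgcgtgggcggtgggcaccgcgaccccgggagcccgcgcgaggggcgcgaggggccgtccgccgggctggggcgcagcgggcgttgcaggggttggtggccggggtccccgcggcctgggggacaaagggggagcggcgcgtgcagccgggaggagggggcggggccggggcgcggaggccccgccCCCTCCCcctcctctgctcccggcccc

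The second Suv39h1 window ends on the motif itself, and in the Ehmt2 windows 34 and 20 bases separate it from the start site. All 8 genes were matched in RefSeq, with 10 windows of 250 bases between them. The motif was in 3 of the 10, both of Ehmt2 and 1 of Suv39h1, against 19.7% of all 32851 such windows. Counted by gene, only Ehmt2 and Suv39h1 of the 8 held the motif, and these were the members with 2 windows. Across the table it was in at least 1 window of 27.9% of 2807 genes called higher, 31.7% of 3122 called lower and 29.3% of 2842 not called. These are matches of letters, with no measurement of binding, and the shares were not tested against each other.

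Ehmt2 and Ehmt1 were both lower after Hnrnpk siRNA, Ehmt2 by more. Ehmt2 (ENSMUSG00000013787, protein coding, chromosome 17 from 34898469 to 34914052, plus strand), which encodes G9a, was 48.3 and 49.7 RPKM after control siRNA and 30.3 and 31.9 RPKM after Hnrnpk siRNA. The knockdown libraries lay well below both control libraries. It fell from 49.0 ± 0.978 to 31.1 ± 1.10 RPKM (SD over 2 libraries a group), to 0.635 of the control mean, with a log2 change of -0.65 (limma, SE 0.0627, adjusted p = 1.63e-05). Of the genes tested, 12.1% had a larger fall. With each library's trend on GC content removed the change was -0.46 and was still called. Ehmt2 shared no stretch of 100 bases at 95% identity with another gene.

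Ehmt1 (ENSMUSG00000036893, chromosome 2 from 24789928 to 24919614, minus strand), which encodes GLP, was 20.4 and 21.4 RPKM after control siRNA and 18.04 and 18.1 RPKM after Hnrnpk siRNA. The groups did not overlap, though by little more than 2 RPKM. It fell from 20.9 ± 0.728 to 18.1 ± 0.071 RPKM (SD over 2 libraries a group), a log2 change of -0.20 (limma, SE 0.0650, adjusted p = 0.0189). The call was lost with length trends removed (-0.13, adjusted p = 0.0868) and without control replicate 2 (-0.17, adjusted p = 0.0668), Hnrnpk siRNA replicate 1 (adjusted p = 0.0885) or Hnrnpk siRNA replicate 2 (adjusted p = 0.0791). The ratio of Ehmt1 to Ehmt2 was 0.422 and 0.431 after control siRNA and 0.595 and 0.569 after Hnrnpk siRNA. The groups did not overlap in this ratio, and its log2 moved by 0.44 (exact permutation test, two-sided p = 0.333; 0.417 after adjustment). Summed RPKM of the 2 partners was 69.9 ± 1.71 and 49.2 ± 1.17 (SD over 2 libraries a group).

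**Figure D2:**
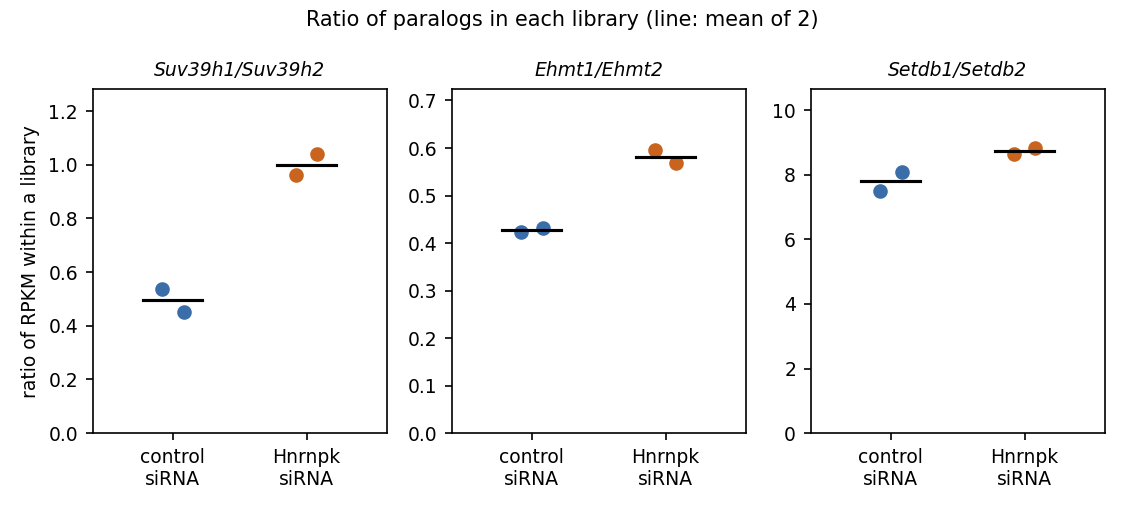
Ratio of RPKM between paralogs within each library, with axes from 0; points are libraries and lines are means of 2. Suv39h1/Suv39h2 went from near 0.5 to near 1, Ehmt1/Ehmt2 from 0.427 to 0.582, and Setdb1/Setdb2 from 7.80 to 8.73.

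The gene of the enzyme in the study's title showed no called change. Setdb1 (ENSMUSG00000015697, chromosome 3 from 95323525 to 95357202, minus strand) was 35.2 and 36.1 RPKM after control siRNA and 33.3 and 32.4 RPKM after Hnrnpk siRNA. Both knockdown libraries were below both controls. The log2 change was -0.12 (limma, SE 0.0615, adjusted p = 0.114), with a 95% interval from -0.26 to 0.020. Over 15 alternatives it lay between -0.15 and -0.062 and was never called, the lowest adjusted p being 0.0513. Part of the longest Setdb1 transcript, 424 of 4658 bases (9.10%), recurs at 95% identity or more on the same strand of Gm4349, a noncoding gene that was not analysed here.

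Setdb2 (ENSMUSG00000071350, chromosome 14 from 59402009 to 59440884, minus strand) was much lower than its paralog, at 4.69 and 4.46 RPKM after control siRNA and 3.85 and 3.67 RPKM after Hnrnpk siRNA. The groups did not overlap. It fell to 0.821 of the control mean, a log2 change of -0.25 (limma, SE 0.0813, adjusted p = 0.0195). The call was lost without Hnrnpk siRNA replicate 1 (-0.28, adjusted p = 0.0823) or replicate 2 (-0.22, adjusted p = 0.164), with quantile normalization (-0.18, adjusted p = 0.069) and with no filter on low genes (adjusted p = 0.0534). The ratio of Setdb1 to Setdb2 was 7.51 and 8.10 after control siRNA and 8.66 and 8.81 after Hnrnpk siRNA. These did not overlap, but the log2 ratio moved by only 0.13, and by 0.021 under quantile normalization (exact permutation test, two-sided p = 0.333 in the main scaling; 0.417 after adjustment).

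Neither partner of SETDB1 was called on its matched row. Trim28 (ENSMUSG00000005566, chromosome 7 from 12999114 to 13031035, plus strand) was 968 and 1053 RPKM after control siRNA and 1038 and 1089 RPKM after Hnrnpk siRNA, so the groups overlapped. Its log2 change was 0.074 (limma, SE 0.0821, adjusted p = 0.445; 95% interval -0.11 to 0.26). The direction depended on the scaling, with -0.041 under quantile normalization. It was called higher with GC trends removed (0.24, adjusted p = 0.0400). Trim28 transcripts outnumbered those of Setdb1 per unit length by a wide margin in each library. The ratio of Setdb1 to Trim28 was 0.0364 and 0.0343 after control siRNA and 0.0321 and 0.0297 after Hnrnpk siRNA, which did not overlap (log2 ratio lower by 0.19 in size; exact permutation test, two-sided p = 0.333; 0.417 after adjustment).

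Atf7ip was listed under 2 identifiers, and they did not behave alike. ENSMUSG00000030213, the Atf7ip gene of GENCODE M21 (chromosome 6 from 136506167 to 136610862, plus strand), was 56.9 and 51.5 RPKM after control siRNA and 54.2 and 48.7 RPKM after Hnrnpk siRNA. The groups overlapped, and the log2 change of -0.074 (limma, SE 0.0761, adjusted p = 0.408; 95% interval -0.25 to 0.096) was not called. Its direction turned with length trends removed (0.0997) and without Hnrnpk siRNA replicate 2 (0.00092). ENSMUSG00000053935, also called Atf7ip in the table and not found in GENCODE M21, was lower in level, at 12.7 and 11.6 RPKM and then 16.3 and 14.7 RPKM. These groups did not overlap, and the row rose by a log2 change of 0.34 (limma, SE 0.0782, adjusted p = 0.00367). No source used here gives the stretch this identifier covers, so the 2 rows are reported apart, and 125 symbols in the table stood on more than 1 row. The ratio of Setdb1 to Atf7ip, on the matched row, was 0.619 and 0.702 after control siRNA and 0.615 and 0.664 after Hnrnpk siRNA, which overlapped (log2 ratio moved by -0.044, exact permutation test, two-sided p = 0.667, also after adjustment).

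**Figure D3:**
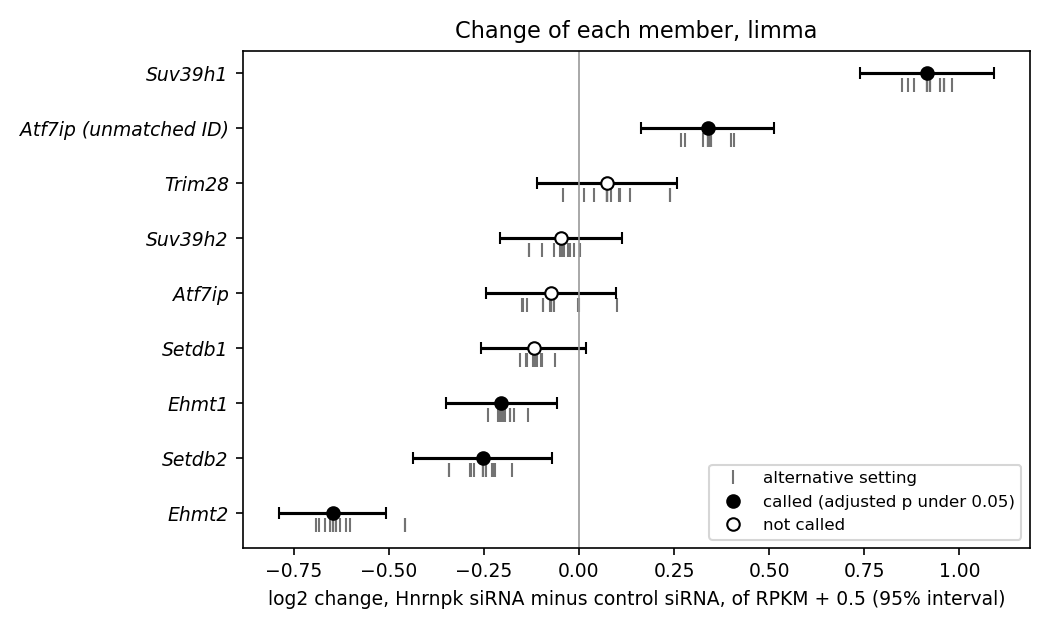
Log2 change of RPKM + 0.5 for each of the 9 rows, Hnrnpk siRNA minus control siRNA; points are limma estimates with 95% intervals, filled where called, and grey ticks are the values under alternative settings. Suv39h1 at 0.91 and Ehmt2 at -0.65 stand apart from 0 under every setting drawn, and the intervals of Trim28, Suv39h2, Setdb1 and the matched Atf7ip row include 0.

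Among other proteins that bring SETDB1 to chromatin or read its mark, 6 of 18 genes tested were called higher and 2 lower (44.4% called, against 67.2% of all genes), with a median log2 change of 0.064. With GC trends removed 9 were called, and 55.6% of those calls were higher. Zfp809, a KRAB zinc finger protein that directs TRIM28 to murine leukaemia virus proviruses, rose from 14.2 ± 0.647 to 28.2 ± 2.85 RPKM (SD over 2 libraries a group; log2 change 0.97 by limma, adjusted p = 6.74e-06). Its libraries were 13.7 and 14.6 RPKM and then 30.2 and 26.2 RPKM, with no overlap. The gene listed as 2810474O19Rik, now Resf1, which acts with SETDB1 in silencing retroviral elements, rose from 33.3 ± 2.74 to 53.1 ± 5.0 RPKM, and the Atf7ip paralog Atf7ip2 rose from 3.06 ± 0.0785 to 4.56 ± 0.190 RPKM (SD over 2 libraries a group), by 0.67 and 0.51 on the log2 scale. The 2 that fell were Trim33, a TRIM28 relative, from 20.3 ± 0.0325 to 14.9 ± 1.03 RPKM, and Mphosph8, the H3K9 methyl reader of the HUSH complex, from 26.1 ± 0.402 to 19.9 ± 1.32 RPKM (SD over 2 libraries a group), with log2 changes of -0.44 and -0.38.

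Among partners of G9a-GLP and of the SUV39H enzymes, 3 of 14 genes were called higher and 7 lower (71.4% called, against 67.2% of all genes), with a median log2 change of -0.14. With length trends removed the share of higher calls went from 30.0% to 42.9%. Uhrf1, a reader of H3K9 methylation and hemimethylated DNA that is also tied to G9a, fell from 125 ± 1.24 to 81.5 ± 2.49 RPKM (SD over 2 libraries a group; log2 change -0.61 by limma, adjusted p = 2.01e-05). Zfp518b, a zinc finger partner of G9a, and Cdyl, a chromodomain protein that binds G9a, fell with log2 changes of -0.50 and -0.35. Wiz, the zinc finger protein that holds G9a and GLP together on chromatin, was 24.3 and 20.8 RPKM and then 22.01 and 21.1 RPKM and was not called (log2 change -0.058, adjusted p = 0.544). The 3 that rose were Sirt1, a deacetylase reported to act on SUV39H1, from 26.4 ± 0.0916 to 46.7 ± 2.98 RPKM, E2f6, a repressor of germline genes, from 11.8 ± 0.751 to 20.02 ± 0.277 RPKM, and Rb1, the retinoblastoma gene, from 4.32 ± 0.922 to 8.31 ± 0.796 RPKM (SD over 2 libraries a group). Their log2 changes were 0.81, 0.74 and 0.88. Without the filter on low genes 6 genes of this list were called, and of all 22138 genes 3778 were called higher and 3771 lower.

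The enzymes that remove H3K9 methylation also went both ways. Of 11 rows tested, 2 were called higher and 5 lower (63.6% called, against 67.2% of all genes), with a median log2 change of -0.054. With length trends removed the median was 0.026, and the share of higher calls went from 28.6% to 42.9%. Kdm3a, which removes mono- and dimethylation, was 36.8 and 37.8 RPKM after control siRNA and 73.7 and 71.9 RPKM after Hnrnpk siRNA. It rose by a log2 change of 0.96 (limma, SE 0.0604, adjusted p = 1.31e-06), with groups far apart. Phf8 rose from 6.67 ± 0.125 to 9.61 ± 0.496 RPKM, while Kdm1a, which acts on H3K9 and on lysine 4, fell from 77.6 ± 2.56 to 60.3 ± 1.62 RPKM (SD over 2 libraries a group), with log2 changes of 0.50 and -0.36. Both rows listed as Jmjd1c, a KDM3 relative, fell, with log2 changes of -0.51 and -0.47. Of the PRDM proteins linked to H3K9 methylation, Prdm16 rose from 1.79 ± 0.185 to 2.51 ± 0.0497 RPKM (SD over 2 libraries a group; log2 change 0.40 by limma, adjusted p = 0.00394), Prdm2 was not called, and Mecom and Prdm8 were below the filter. With length trends removed, both tested PRDM genes were called.

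Genes of the families that hold methyltransferases of other histone lysines give a measure of how such genes moved outside H3K9. They were listed by family, and whether each protein is itself active on histones was not examined. Of 24 tested, 4 were called higher and 7 lower (45.8% called, against 67.2% of all genes), with a median log2 change of -0.049, and the H3K9 enzymes were not tested against them. With length trends removed the median was 0.050, and the share of higher calls went from 36.4% to 50.0%. Leaving out the filter gave 7 called, and of all 22138 genes 3778 were called higher and 3771 lower. Leaving out Hnrnpk siRNA replicate 2 gave fewer calls than all 4 libraries, in this list and over all genes tested. Setd7, which monomethylates lysine 4, fell the furthest of the list, from 5.45 ± 0.174 to 1.70 ± 0.0950 RPKM (SD over 2 libraries a group; log2 change -1.44 by limma, adjusted p = 9.36e-07). Whsc1 (NSD2) and Nsd1, both of which methylate lysine 36, fell with log2 changes of -0.87 and -0.48. Setd1b and Mll5 rose, with log2 changes of 0.81 and 0.57.

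The methyl donor of all these enzymes is S-adenosylmethionine. Of 10 genes of its supply and use tested, 4 were called higher and 5 lower (90.0% called, against 67.2% of all genes), with a median log2 change of -0.21. Mat2b and Mat2a, regulatory and catalytic subunits of the synthetase, rose from 32.1 ± 0.436 to 53.1 ± 0.873 RPKM and from 159 ± 24.2 to 208 ± 7.94 RPKM (SD over 2 libraries a group), with log2 changes of 0.72 and 0.40. Methionine synthase, Mtr, fell from 15.4 RPKM in each control library to 7.91 and 6.99 RPKM after Hnrnpk siRNA (log2 change -0.998 by limma, adjusted p = 4.50e-06). Gnmt, a glycine methyltransferase that consumes the donor, fell from 3.87 ± 1.115 to 0.738 ± 0.140 RPKM, and Ahcyl1, a relative of the hydrolase that clears the product, from 22.02 ± 0.611 to 13.7 ± 0.353 RPKM (SD over 2 libraries a group). Their log2 changes were -1.80 and -0.67.

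**Figure D4:**
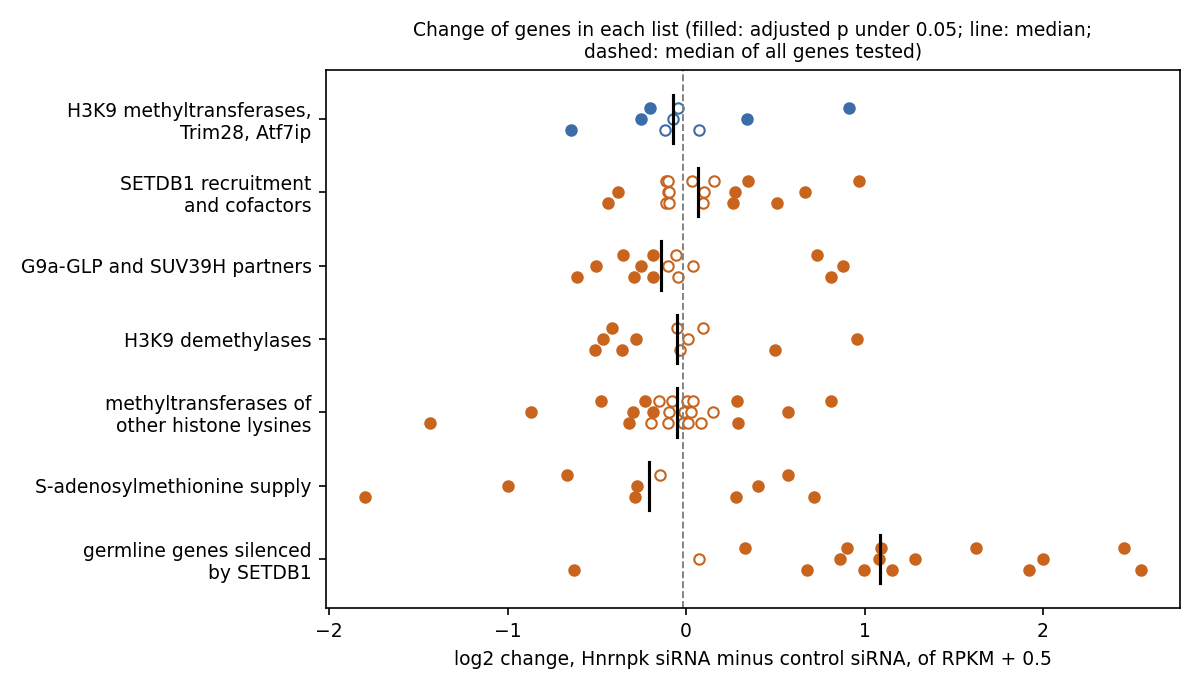
Log2 change of RPKM + 0.5 for each tested gene, Hnrnpk siRNA minus control siRNA, in the 9 rows of the H3K9 group and in each list with at least 5 genes tested; filled points are called, short lines are list medians and the dashed line is the median of all genes tested, -0.015. The germline list, with a median of 1.09, lies to the right, and the medians of the other lists lie between -0.21 and 0.064. All lists were chosen with earlier results of these data known.

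Genes reported to be silenced by these enzymes in embryonic stem cells were counted as well. These lists were chosen with earlier results of these data known, so their shares called are a description and not a test. For germline genes tied to SETDB1, 14 of 16 tested were called higher and 1 lower (93.8% called, against 67.2% of all genes, and 32.2% called higher), with a median log2 change of 1.09. Brdt, a testis bromodomain protein, at means of 0.331 and 1.26 RPKM, passed the filter only through the Hnrnpk siRNA libraries. Without it, 13 of 15 were called higher, again with a median of 1.09. Asz1 was below the filter. Slc25a31, a germ cell ADP/ATP carrier, and Taf7l, a testis transcription factor subunit, had the lowest p-values, with log2 changes of 2.55 and 2.45. The 1 that fell was Tuba3a, a testis alpha-tubulin with near-identical copies, at 58.4 and 46.9 RPKM and then 33.1 and 34.3 RPKM (log2 change -0.63 by limma, adjusted p = 0.00026). Setdb1 was at 0.920 and Trim28 at 1.05 of their control means in the same libraries. For genes tied to G9a-GLP, 8 of the 9 listed, all Magea genes, stayed under the filter, with no value above 0.289 RPKM. Among them Magea1 was listed at 0 in every library, and Magea3 and Magea6 were listed at 0 in both controls and at 0.0074 to 0.0211 RPKM after Hnrnpk siRNA. Wfdc15a, the 1 gene tested, rose from 0.212 and 0.327 RPKM to 2.05 and 2.23 RPKM (log2 change 1.78, SE 0.107, limma adjusted p = 9.77e-07), and it passed the filter only through the Hnrnpk siRNA libraries.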

How the data were processed

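The table of RPKM per gene and library deposited by the authors was used as given. Per the submitters' processing notes, BWA, SAMtools and mm9 were used; no source used here gives versions, the counting tool, the annotation or strandedness. The labels' protocols mention both ribosomal RNA depletion and poly(A) selection. The series' design text calls replicates biological; whether these were separate cultures is not given, so p-values measure the spread between these libraries. Of 22138 identifiers, 20551 (92.8%) matched GENCODE M21, whose GRCm38 positions are printed.

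RPKM are not counts, so values were analysed as log2(RPKM + 0.5) with limma 3.58.1 in R 4.3.3 (mean-variance trend, two-sided) over the 12486 genes whose mean reached 0.5 RPKM, with Benjamini-Hochberg adjustment. A fold change on this scale understates that of low genes. The procedure was tested on simulated data in which a far smaller share of genes changed than was called here. That test therefore does not show how the calls behave when most genes are called. Transcripts were compared by BLAST 2.17.0 at 95% identity over 100 bases. Members and lists were chosen with earlier results of these data known. Named genes are the members, Hnrnpk, markers, neighbouring genes, the genes nearest in pattern, and up to 3 genes called in each direction per list, lowest p first; Wiz, Prdm2, Mecom, Prdm8, Brdt, Asz1, the Magea genes and the motif were chosen outside this rule. Of the genes that the rule names, 2 are not reported here. Alternatives changed the added value, filter, scaling, trends, replicate block and libraries.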

Additional observations from a re-analysis of the deposited data

How the results depend on the processing

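The rise of Suv39h1 (0.85 to 0.98) and the fall of Ehmt2 (-0.69 to -0.46) were called under all 15 alternatives, and Setdb1 (-0.15 to -0.062) under none. For Ehmt1 and Setdb2 calls were lost with length trends removed (Ehmt1, -0.13), quantile normalization (Setdb2, -0.18) and no filter (Setdb2, -0.25). Without 1 library at a time Ehmt1 lay between -0.24 and -0.17 and Setdb2 between -0.29 and -0.22. The unmatched Atf7ip row missed the threshold with no filter (0.34) and lay between 0.27 and 0.41 without 1 library. Trim28 turned to -0.041 under quantile normalization and was called at 0.24 with GC trends removed, with or without the replicate block. The matched Atf7ip row turned to 0.0997 with length trends removed and, without 1 library, lay between -0.15 and 0.00092. Suv39h2, without 1 library, lay between -0.097 and 0.0018, and the log2 ratio of Setdb1 to Atf7ip moved by -0.13 to 0.045. With no filter, rows called numbered 3 of 9, and of all 22138 genes 3778 were called higher and 3771 lower. With control replicate 2 or either Hnrnpk siRNA library left out, fewer of the 9 rows were called. Over all genes tested, fewer were called with either Hnrnpk siRNA library left out. With length trends removed, rows called numbered 3 of 8. The unmatched Atf7ip row has no annotated length or GC content and was not run there. With no filter, the lists of partners of G9a-GLP, of other methyltransferases and of genes silenced by G9a-GLP had 6, 7 and 5 called, and the other methyltransferases had 7 to 12 without 1 library. The PRDM list had 2 called with length trends removed. The cause of these moves was not tested. The replicate block kept every call among the 9 rows (Ehmt1 -0.20, adjusted p = 0.0136). Differences between replicates 1 and 2 correlated at r = 0.027 over 12486 genes between the groups, so no shared difference by replicate number was seen. A correlation over genes cannot settle whether the libraries were prepared as pairs. Counts of all genes called stayed between 3155 and 4291 higher and between 3552 and 4502 lower.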

Other observations

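Genes beside the 8 loci did not all follow them. Both genes next to Ehmt1 fell, Arrdc1 by a log2 change of -0.48 (limma adjusted p = 0.00136) and Cacna1b by -0.30 (limma adjusted p = 0.0301). Next to Setdb2, Gm6907 rose by 1.03 (limma adjusted p = 1.15e-05) and Cab39l was not called (0.048). Gm6907, at means of 0.296 and 1.13 RPKM, passed the filter only through the Hnrnpk siRNA libraries. C2, which encodes a complement protease and starts 204 bases from Ehmt2 on the opposite strand, fell from 1.21 ± 0.228 to 0.493 ± 0.0465 RPKM (SD over 2 libraries a group; log2 change -0.77 by limma, adjusted p = 0.00024). Slc44a4, which begins 414 bases beyond Ehmt2 on the same strand, fell from 3.22 ± 0.0664 to 2.49 ± 0.238 RPKM (SD over 2 libraries a group; log2 change -0.31 by limma, adjusted p = 0.012). Chmp2a, an ESCRT-III subunit 975 bases from Trim28 on the opposite strand, rose from 96.6 ± 3.20 to 201 ± 24.95 RPKM (SD over 2 libraries a group; log2 change 1.05 by limma, adjusted p = 5.85e-06), where Trim28 was not called. Zbtb45, which lies inside the annotated span of Trim28, fell by 0.19 on the log2 scale (limma adjusted p = 0.0446). Lass2, which overlaps the end of Setdb1, was not called (log2 change -0.068).

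By the root mean square difference of centred log2 values over the 4 libraries, the genes nearest to Suv39h1 in pattern included Fuca2 (0.0145) and Rab17 (0.0155), and 255 genes lay within 0.1. The nearest to Ehmt2 were Slc4a5 (0.0052), 2610027L16Rik (0.0122) and Tcerg1l (0.0126), with 741 genes within 0.1. Likeness over 4 libraries in 2 groups is therefore common in this table.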
